A study of Homo sapiens with 2 samples.

Results

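The G2/M and mitosis genes are a set of 45 protein-coding genes named by symbol, among them the mitotic cyclins CCNB1 and CCNB2, the kinases CDK1, PLK1, AURKA and AURKB, and the proliferation marker MKI67. Each symbol was matched to 1 Ensembl row of the count table, so that the 45 members stand among 33538 genes, of which 18063 had a unique molecular identifier (UMI) in any cell. The rule uses the symbols and no measured value, although the set was drawn up with earlier results of these data known. The cells were untreated SH-SY5Y (SY5Y), an established human neuroblastoma line grown in serum, and were not synchronized. A single culture was divided over 2 flasks, SplitA and SplitB, that were tagged with antibody hashtags, pooled and sequenced as 1 droplet 3′ mRNA library by CITE-seq. Both flasks carried the same treatment label, untreated, and both hashtags were labelled as the same split; the flask names are those of the study. Stated confluence at harvest was about 70% in the series design and about 80% in the protocol.

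Progression from G2 into mitosis is driven by CDK1 bound to cyclins A and B, and these genes are transcribed in a wave that starts in S phase and peaks around mitotic entry. Aurora and polo-like kinases then build the spindle, kinetochore proteins attach chromosomes to it, and the spindle checkpoint holds the anaphase-promoting complex (APC/C) until attachment is complete. The APC/C, with CDC20 and the ubiquitin-conjugating enzyme UBE2C, next marks securin (PTTG1) and cyclin B for destruction, and the cytokinesis proteins divide the cell. The cyclins, kinases and motor proteins of this wave are used as proliferation markers in neuroblastoma as in other tumours.

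The promoters of this gene group are known for CCAAT boxes and for a cell cycle homology region (CHR) close to the start site, so the bases before the start were examined for these letters. Windows from RefSeq (GRCh38.p14) were at hand for 38 of the 45 members, 44 windows in all, and not for BUB3, UBE2C, AURKA, RACGAP1, BIRC5, TPX2 and TTK. In the 150 bases before the start, TTTGAA or its reverse complement TTCAAA, or the self-complementary TTCGAA (the CHR-type letters) occurred in 20 of 44 member windows (45.5%) and in 2765 of 35116 windows of all genes (7.87%). The letters CCAAT, read as ATTGG on the other strand, occurred in 30 member windows (68.2%) and in 23.5% of all windows. Both kinds together occurred in 17 member windows (38.6%) and in 2.10% of all windows. CHR-type letters wholly between -40 and -15 were found in 12 windows (27.3%) and in 1.26% of all windows. The sequences below are the 120 bases up to the base before the start, 5′ to 3′. They are those of the 5 members with most UMIs whose single window holds both kinds of letters there, and of CCNB1. The CCNB1 window holds CCAAT but none of the CHR-type letters searched. Capitals mark the CHR-type and CCAAT letters, which overlap at 1 place in MKI67.

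CKS1B (chr1:154974561-154974680, plus strand): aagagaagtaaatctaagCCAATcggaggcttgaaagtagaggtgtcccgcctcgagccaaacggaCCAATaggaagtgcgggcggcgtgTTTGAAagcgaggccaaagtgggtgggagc
CKS2 (chr9:89311075-89311194, plus strand): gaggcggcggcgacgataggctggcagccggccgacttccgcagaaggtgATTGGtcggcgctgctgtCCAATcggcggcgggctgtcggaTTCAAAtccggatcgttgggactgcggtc
MKI67 (chr10:128126424-128126543, minus strand): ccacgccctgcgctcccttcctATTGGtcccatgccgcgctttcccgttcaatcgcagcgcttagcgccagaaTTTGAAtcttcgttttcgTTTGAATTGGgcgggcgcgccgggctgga
KPNA2 (chr17:68035615-68035734, plus strand): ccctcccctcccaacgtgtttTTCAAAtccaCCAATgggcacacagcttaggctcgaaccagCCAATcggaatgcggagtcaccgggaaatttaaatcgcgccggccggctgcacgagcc
GTSE1 (chr22:46296750-46296869, plus strand): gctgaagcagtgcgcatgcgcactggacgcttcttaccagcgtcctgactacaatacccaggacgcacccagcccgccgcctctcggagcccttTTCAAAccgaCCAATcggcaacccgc
CCNB1 (chr5:69167030-69167149, plus strand): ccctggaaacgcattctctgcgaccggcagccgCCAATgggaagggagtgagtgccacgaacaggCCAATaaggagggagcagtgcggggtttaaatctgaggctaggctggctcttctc

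In these windows the last CHR-type letters began at -30 in CKS1B, -29 in CKS2 and MKI67, -26 in GTSE1 and -99 in KPNA2. CHR-type letters were present in 4 of 10 early members, 8 of 15 late members and 8 of 13 others with an entry, as the early and late groups are defined further on. TTTAAA, which was not searched, also occurs in the printed windows of CCNB1 and KPNA2, in KPNA2 nearer the start than -99. A match of letters is a description of the window and not a binding site, and a window without the searched letters may still hold a CHR of other letters.

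After assignment by hashtag, 899 SplitA and 1195 SplitB cells had 1000 or more genes, of 1179 and 1605 assigned cells. The 95 barcodes that met the hashtag limits of neither flask, which the study calls multiplets, were left out. Cells held 1801 to 27205 UMIs, with medians of 6063 and 6346. All 10 neuroblastoma markers examined had UMIs in both flasks, PHOX2A in 94.9% and 93.6% of cells, although TH, the rate-limiting enzyme of catecholamine synthesis, was in 1.00% and 0.753% of cells. Of 10 markers of blood, endothelial, epithelial and fibroblast cells, 8 were at 0 and the summed level was 3.59 and 3.72 CPM. A level in CPM is the UMIs of a gene as a share of all UMIs of the flask, scaled to 1000000 UMIs, with exact Poisson 95% intervals, and shares of cells have exact binomial 95% intervals. These intervals cover counting error only. Because the 3′ library gives about 1 tag a transcript, CPM values of different genes were set side by side without correction for length. With 1 library and 1 flask against 1 flask, no test between conditions was possible and the values are descriptions. Every cell in the library could express these genes, so background from free RNA could not be measured, and doublets within a flask carry a single hashtag and could not be seen.

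The 45 members together gave 18235 UMIs in SplitA and 24475 in SplitB. Their summed level was 3116 CPM (3071 to 3161) in SplitA and 3034 CPM (2996 to 3072) in SplitB. A cell held a median of 10 member UMIs in SplitA and 12 in SplitB, up to 203 and 170. At least 50 member UMIs were found in 10.3% of SplitA cells (8.43% to 12.5%) and 9.54% of SplitB cells (7.93% to 11.4%). No member UMI was found in 13 SplitA cells (1.45%) and 5 SplitB cells (0.418%). With every cell thinned to 2000 UMIs, which left out 1 and 2 shallower cells, these shares were 10.2% and 9.72%.

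Most cells held some member UMIs, but the amounts were unequal. The 10% of cells with the largest member share held 36.4% of all member UMIs in SplitA and 34.5% in SplitB, at 11109 and 11293 CPM, against 809 and 907 CPM in the 50% of cells with the smallest share. This ranking uses the members themselves and gives no test. Cells at the upper end had UMIs of a median of 26.5 and 27 different members, and those in the lower 50% of 3 and 4. Depth did not follow this order in the same way in both flasks, with median totals of 6725.5 and 6053.5 UMIs at the upper end and 5799 and 6211 in the lower 50%. Barcodes under 1000 genes, which were not used, held 4124 CPM of the members in SplitA (280 barcodes) and 3888 CPM in SplitB (410 barcodes).

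Single members spanned about 2 orders of magnitude in level, as the plot of CPM by role shows. CKS1B, a small subunit of the cyclin-dependent kinases, was highest and BUB1, a checkpoint kinase, was lowest. CKS1B, CKS2, CENPF, UBE2C, PTTG1, BIRC5 and SMC4 were each above 150 CPM in both flasks, while TTK and BUB1 were the members below 10 CPM in both.

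**Figure D1:**
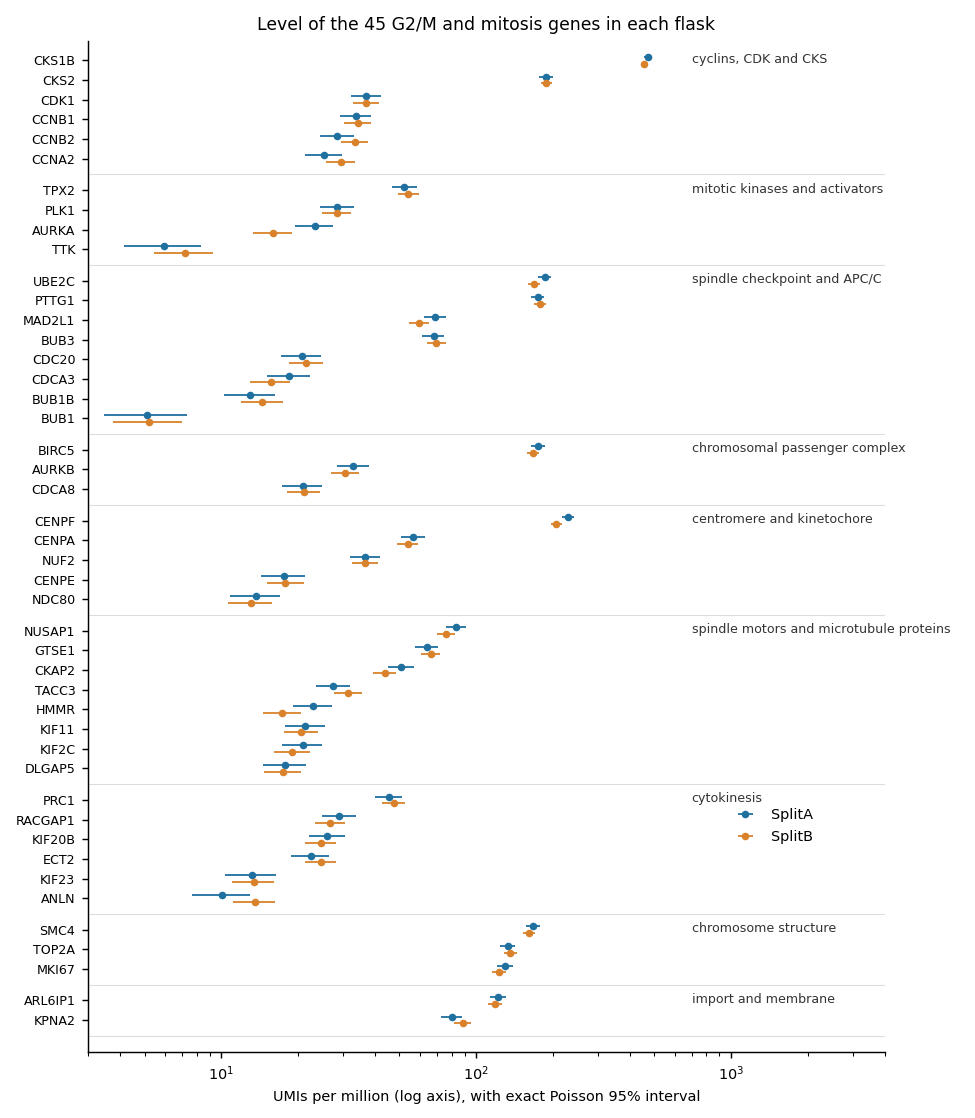
Level of each of the 45 genes in SplitA (blue) and SplitB (orange), in CPM on a log axis with exact Poisson 95% intervals, grouped by role. CKS1B lies farthest right at 472 and 457 CPM, BUB1 farthest left at 5.13 and 5.21 CPM, and the points of the flasks lie close together for most genes.

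The cyclins, CDK1 and the CKS proteins made up 785 CPM (762 to 808) in SplitA and 780 CPM (761 to 799) in SplitB, or 25.2% and 25.7% of all member UMIs. CKS1B (ENSG00000173207, GRCh38 chromosome 1 from 154974653 to 154979251) had 472 CPM (455 to 490) in SplitA and 457 CPM (442 to 472) in SplitB, and a UMI in 78.3% and 81.2% of cells. Its UMIs were spread more evenly than those of most members. In the 10% of cells with the largest share of the other members it had 21.9% and 18.8% of its own, and its level in the lower 50% of cells was 231 and 250 CPM. CKS2, the second CKS subunit, had 188 CPM in SplitA and 189 in SplitB. CDK1 (ENSG00000170312, chromosome 10 from 60778331 to 60794852), the catalytic subunit, had 36.9 CPM (32.1 to 42.2) and 37.1 CPM (33.0 to 41.5).

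The B cyclins were lower, and CCNB1 was among the 5 most concentrated members in both flasks. CCNB1 (ENSG00000134057, chromosome 5 from 69167135 to 69178245) had 33.7 CPM (29.1 to 38.7) in SplitA and 34.3 CPM (30.4 to 38.6) in SplitB, with a UMI in 13.7% and 14.4% of cells. The upper 10% of cells, ranked by the other members in this way for each gene, held 55.3% and 58.8% of its UMIs. CCNB2 had 28.5 and 33.5 CPM, with 35.9% and 42.2% of its UMIs in the upper 10% of cells. CCNA2, the cyclin that acts from S phase to early mitosis, had 25.3 and 29.4 CPM and 40.5% and 40.1% of its UMIs there.

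Among the mitotic kinases and activators, TPX2, which activates and localizes AURKA, had 52.3 CPM (46.6 to 58.5) and 54.2 CPM (49.2 to 59.5). PLK1 (ENSG00000166851, chromosome 16 from 23677656 to 23690367), the polo-like kinase of mitotic entry, had 28.5 CPM (24.4 to 33.2) and 28.4 CPM (24.8 to 32.3), and 58.7% and 64.2% of its UMIs were in the upper 10% of cells. In SplitB this was the largest such share of any member, and in SplitA CENPE, a kinetochore motor, had the largest, at 62.1% (58.3% in SplitB). AURKA, the spindle pole kinase, had 23.2 CPM (19.5 to 27.5) in SplitA and 15.99 CPM (13.4 to 19.0) in SplitB. TTK, the checkpoint kinase MPS1, had 5.98 and 7.19 CPM from 35 and 58 UMIs, which limits every value given for it.

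The spindle checkpoint and APC/C genes summed to 554 CPM in SplitA and 533 in SplitB. Those around the APC/C carried most of it, UBE2C with 186 and 168 CPM and PTTG1 with 174 and 178 CPM. CDC20, the activator that binds the APC/C at the metaphase to anaphase transition, was at 20.7 and 21.6 CPM, with 52.1% and 59.8% of its UMIs in the upper 10% of cells. The checkpoint proteins MAD2L1 (68.9 and 59.6 CPM) and BUB3 (68.0 and 69.8 CPM) were, with CKS1B, the 3 least concentrated members in both flasks. Their shares in the upper 10% of cells were 21.8% and 21.6% for MAD2L1 and 18.6% and 20.6% for BUB3. The kinase BUB1 had 5.13 and 5.21 CPM, BUB1B, which forms part of the checkpoint complex, 12.99 and 14.5 CPM, and CDCA3, a cell cycle adaptor, 18.5 and 15.6 CPM.

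The chromosomal passenger complex corrects kinetochore attachment and guides cytokinesis. Its survivin subunit BIRC5 had 174 CPM in SplitA and 167 in SplitB, its kinase AURKB 33.0 and 30.6 CPM and borealin (CDCA8) 20.8 and 21.1 CPM. At the kinetochore, CENPF (ENSG00000117724, chromosome 1 from 214603185 to 214664574) had 229 CPM (217 to 241) in SplitA and 206 CPM (196 to 216) in SplitB. The centromeric histone CENPA had 56.6 and 53.8 CPM, the NDC80 complex subunits NUF2 and NDC80 had 36.7 and 36.7 CPM and 13.7 and 13.02 CPM, and CENPE had 17.6 and 17.9 CPM.

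The 8 spindle motor and microtubule proteins were led by NUSAP1, which bundles microtubules, at 83.2 CPM in SplitA and 76.2 in SplitB. GTSE1, a microtubule-binding protein, had 63.9 and 66.3 CPM, CKAP2, which stabilizes spindle microtubules, 50.7 and 43.8 CPM and TACC3, which crosslinks kinetochore fibres, 27.5 and 31.5 CPM. The others lay close together between 17.4 and 22.9 CPM, namely the hyaluronan receptor and spindle protein HMMR (22.9 and 17.4 CPM), the bipolar spindle motor KIF11 (21.4 and 20.6 CPM), the microtubule depolymerase KIF2C (20.8 and 19.0 CPM) and the spindle assembly protein DLGAP5 (17.8 and 17.5 CPM). The 6 cytokinesis genes were lower, at 146 CPM summed in SplitA and 150 in SplitB. PRC1, which crosslinks the central spindle, was highest (45.4 and 47.5 CPM). RACGAP1, a GTPase-activating protein, followed (29.05 and 26.7 CPM), with its partners in the centralspindlin pathway, the exchange factor ECT2 (22.4 and 24.5 CPM) and the motor KIF23 (13.2 and 13.4 CPM). The motor KIF20B had 26.0 and 24.5 CPM and ANLN, a scaffold of the contractile ring, 10.1 and 13.5 CPM. The chromosome structure genes were higher. SMC4, a condensin subunit, had 167 and 161 CPM, topoisomerase II alpha (TOP2A) 133 and 136 CPM and MKI67, which coats mitotic chromosomes, 130 and 123 CPM. The remaining members, the endoplasmic reticulum protein ARL6IP1 and the nuclear import receptor KPNA2, had 122 and 118 CPM and 80.1 and 88.4 CPM.

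The members varied together from cell to cell. For each gene the Pearson r over cells was computed between its LogNorm level, ln(1 + 10000 × UMIs / cell total), and that of the sum of the members, leaving out the gene itself where it is a member. All 45 members had a UMI in 20 or more cells of each flask, and 43 had an r of at least 0.2 in both flasks, where 209 of all 10491 genes so measured did (1.99%, members included). The median r of the members, taking for each the flask nearer to 0, was 0.383 (0.184 to 0.673), and that of all genes 0.00426. These r values are descriptions over cells of 1 library, and cells share its depth. CENPF had the highest r, 0.691 in SplitA and 0.673 in SplitB, followed by TOP2A (0.640 and 0.658) and MKI67 (0.634 and 0.636).

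The members that missed the limit were those with fewest UMIs. TTK had an r of 0.186 in SplitA and 0.265 in SplitB, and BUB1 of 0.205 and 0.184. Across the 45 members r followed the level, with a Spearman correlation of 0.831 in SplitA and 0.762 in SplitB, so a low r of a rare gene does not show that it varies apart from the rest. MAD2L1 and BUB3, at 59.6 to 69.8 CPM, had 0.444 and 0.349 and 0.274 and 0.241, and the r of BUB3 was below that of PLK1 (0.429 and 0.441), a gene with fewer than 50% of its UMIs. With cells thinned to 2000 UMIs, 27 of the 42 members that were still in 20 cells of each flask passed the limit, and 0.829% of all genes did.

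**Figure D2:**
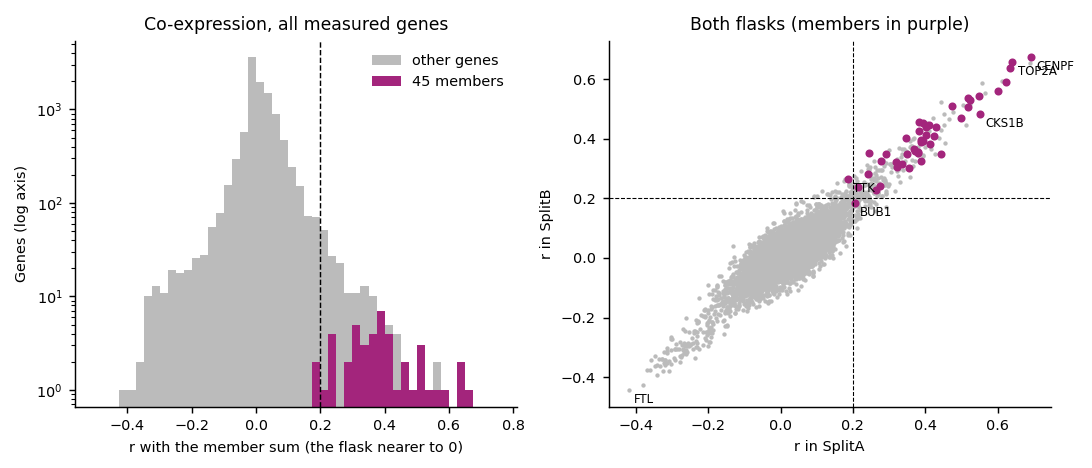
Left, genes (log axis) by their r with the summed members, taking the flask nearer to 0, for the 45 members (purple) and other genes (grey), with the limit of 0.2 as a dashed line. Right, r in SplitA against r in SplitB, where 43 of the 45 purple points lie past both dashed lines and TTK and BUB1 do not.

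All 990 pairs of members had a positive r in both flasks, and 506 pairs (51.1%) had an r of 0.2 or more in both. Pairs of other genes were not computed, so these counts have no share over all genes beside them. The median over pairs was 0.230 in SplitA and 0.226 in SplitB, and 0.116 and 0.119 with cells thinned to 2000 UMIs. The 3 closest pairs joined CENPF, TOP2A and MKI67. CENPF with TOP2A had an r of 0.556 and 0.558, CENPF with MKI67 0.586 and 0.556, and TOP2A with MKI67 0.528 and 0.520. Of cells with a TOP2A UMI, 79.0% in SplitA and 76.9% in SplitB also had one of CENPF. A pair of lower level stood out beside these, CCNB1 with KPNA2, at 0.463 and 0.461. Of cells with a CCNB1 UMI, 67.5% and 62.2% had one of KPNA2, against 30.1% and 31.9% of all cells. CCNB1 and KPNA2 were both far higher in a small group of cells rich in TUBA1A and HSP90AA1, described further on. The r of this pair without that group was not computed. The lowest pair was TTK with BUB1 (0.00906 and 0.0131), for which 2 and 4 cells held both.

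**Figure D3:**
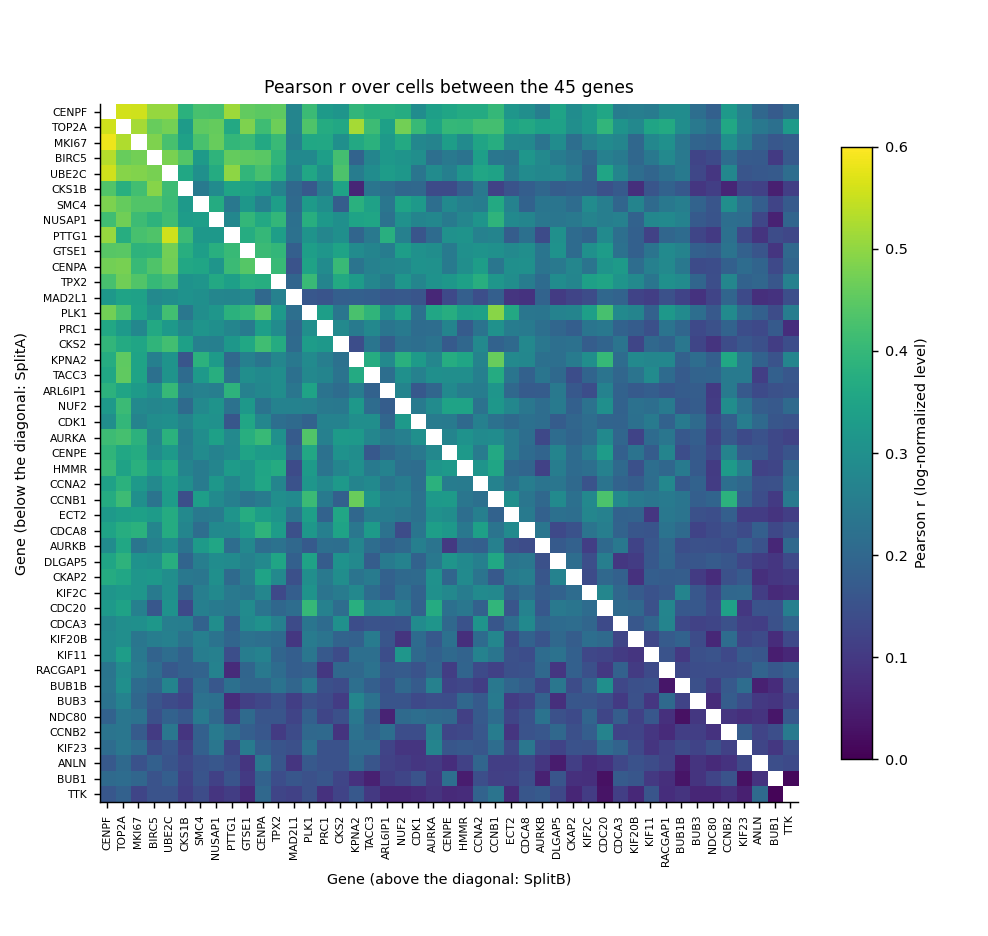
Pearson r over cells for each pair of the 45 genes, SplitA below the diagonal and SplitB above it, with genes ordered by their r with the other members in SplitA. The brightest block joins CENPF, TOP2A, MKI67, BIRC5 and UBE2C, and CCNB1 with KPNA2 forms a separate bright point in each triangle.

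The order of the wave was followed with genes that are not members. From textbook knowledge 10 members were placed as early (TOP2A, CDK1, CCNA2, SMC4, NUSAP1, MAD2L1, KIF11, NDC80, TACC3 and CKS1B), 17 as late (CCNB1, CCNB2, CDC20, PLK1, AURKA, PTTG1, CENPA, CENPE, CENPF, TPX2, DLGAP5, HMMR, BUB1, KPNA2, ARL6IP1, CKS2 and KIF2C) and 18 as neither. For each member the level of 24 DNA replication genes, and of 64 replication-dependent histone genes, was averaged over the cells that held its UMIs, weighted by UMIs. Both lists were drawn up as genes of S phase, at whose end histone transcripts are removed. The library captures RNA with oligo-dT primers, and how well it captured histone transcripts was not tested. The replication level beside early members had a median of 17.2 UMIs per 10000 in both flasks, against 13.8 in SplitA and 15.7 in SplitB beside late members and 11.97 and 11.9 over all UMIs. The log2 ratio of early to late was 0.32 in SplitA and 0.14 in SplitB, and the ranges of the groups overlapped.

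Histone levels differed more between the groups. The histone level beside early members had a median of 35.8 per 10000 in SplitA and 36.0 in SplitB, and beside late members of 25.4 and 22.0, with 26.7 and 27.1 over all UMIs. The log2 ratio was 0.49 in SplitA and 0.71 in SplitB. In SplitA 16 of 17 late members lay below every early member, TPX2 (35.3) being the exception, and in SplitB 15 of 17, TPX2 (32.9) and KIF2C (33.2) being the exceptions. Most genes lay there too. The median over all 10491 genes measured was 26.5 in SplitA and 26.6 in SplitB, and the lowest early member was at 31.6 and 32.5. The count therefore does not set the late members apart from other genes. All 10 early members were above the level over all UMIs, as were 8 and 5 of the 17 late members. A single gene carried most of the set, since H4C3 alone had 2378 and 2404 CPM of the 2672 and 2705 CPM of the set. The histone level is therefore mainly the level of H4C3, and the groups were not compared without this gene. Of 15 histone genes measured, H4C3 alone had an r of at least 0.2 with the summed members in both flasks. The median r of the 15, taking the flask nearer to 0, was 0, and H2AC25 was at -0.231 and -0.286.

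Some late members were among the lowest in histone level in both flasks. The levels were 16.7 and 17.0 for CCNB1, 19.8 and 17.0 for PLK1, 17.95 and 18.9 for CDC20 and 17.6 and 19.7 for CCNB2. ARL6IP1, the endoplasmic reticulum protein, was close to them (21.7 and 21.0), while TPX2, which activates AURKA, was high (35.3 and 32.9). Low levels were thus not particular to genes of mitotic entry and exit. AURKB, placed in neither group, was among the highest in both flasks (43.2 and 42.4), while TTK was highest in SplitA (43.5, against 32.6 in SplitB) and KIF11 in SplitB (43.99, against 36.6 in SplitA). Some late members differed between flasks, with HMMR at 28.7 in SplitA and 18.4 in SplitB and AURKA at 29.0 and 20.7. Over all cells KPNA2 combined a low histone level (22.0 in both flasks) with the highest replication level of the late members (20.3 and 19.5). CCNB1 had 17.4 and 18.1 on that scale. Both levels of KPNA2 differed without a small group of cells, as given further on.

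**Figure D4:**
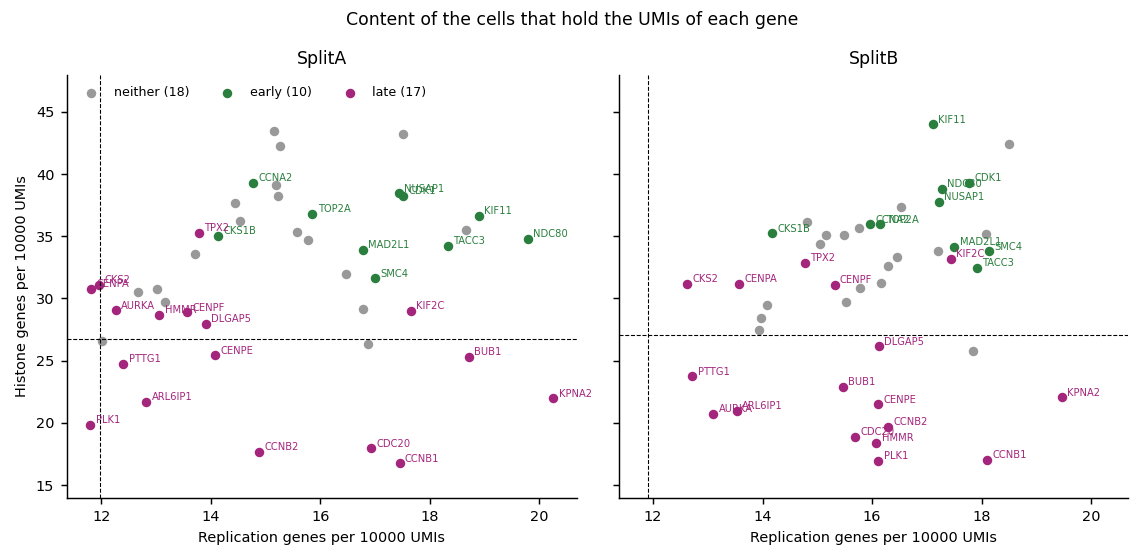
Level of 24 replication genes (horizontal) against 64 histone genes (vertical), both per 10000 UMIs, in the cells that held the UMIs of each member, for early (green), late (purple) and other (grey) members, with dashed lines at the level over all UMIs. Early members lie above the histone line in both panels, while CCNB1, CCNB2, CDC20 and PLK1 lie at 16.7 to 19.8 and KPNA2 farthest to the right among late members.

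The same order by histone level was seen among the cells with a large member share. The 20% of cells with the largest member share were put in 3 parts by the late share of their early and late UMIs. From the lowest to the highest late share, the histone level was 52.5, 23.4 and 7.38 per 10000 in SplitA and 63.4, 20.04 and 8.77 in SplitB. The summed member level was higher from part to part, going from 6373 through 8707 to 10395 CPM in SplitA and from 6554 through 8676 to 10215 CPM in SplitB. The replication level went from 21.1 to 12.9 and then 11.7 in SplitA, while in SplitB it went from 21.2 to 12.8 and then 15.1. Median depth was 6113, 7480.5 and 6221 UMIs in SplitA and 6151, 7365.5 and 5547 in SplitB. The early and late sums were themselves correlated over cells, with an r of 0.661 in SplitA and 0.652 in SplitB. The histone levels of the 3 parts were not computed without H4C3. The 3 parts were also not recomputed without the cells rich in TUBA1A and HSP90AA1 that are described next.

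A small group of cells bore on the place of KPNA2, CCNB1 and other late members. These cells were rich in TUBA1A, a tubulin, and HSP90AA1, a cytosolic chaperone, with 15 or more UMIs per 10000 of each, a limit chosen after the levels were seen. They numbered 64 in SplitA (7.12%) and 91 in SplitB (7.62%). Their median depth was 2765.5 and 2803 UMIs against 6267 and 6554 in the other cells, and their median mitochondrial share was 26.1% in both flasks against 8.50% and 8.65%. The study states a limit of 15% on mitochondrial share, which was not applied here. With it and the study's other limits, using the mitochondrial share as computed here, 829 and 1091 cells remained. The study reports far lower mean mitochondrial shares than the medians here and kept more cells, so these are not its counts. The cause of this difference was not tested. The study describes a cluster highest in TUBA1A and HSP90AA1 and proposes that it may be a more aggressive or stressed transient subset. Whether the rich cells belong to that cluster was not tested, nor was their part in these results beyond the values given here.

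The members were higher in these cells as a group. The summed level was 6465 CPM (6139 to 6803) in SplitA and 7650 CPM (7342 to 7968) in SplitB, against 2980 CPM (2935 to 3025) and 2853 CPM (2816 to 2891) in the other cells. Of the 45 members, 28 were at least 2-fold higher in both flasks, where 12.4% of all 10516 genes with 50 or more UMIs were. KPNA2 had 578 CPM (484 to 686) in these cells of SplitA and 684 CPM (595 to 784) in those of SplitB, against 59.9 and 65.1 CPM elsewhere, 9.65-fold (7.83 to 11.8) and 10.5-fold (8.91 to 12.4) higher. CCNB1 had 228 and 286 CPM against 25.8 and 24.5 CPM, 8.83-fold (6.31 to 12.2) and 11.7-fold (8.97 to 15.2) higher. CDC20 was 6.42 and 6.43-fold higher, CCNB2 4.54 and 8.10-fold and PLK1 2.79 and 7.32-fold. These cells held 3.90% and 3.77% of all UMIs but 28.1% and 29.2% of those of KPNA2 and 26.4% and 31.4% of those of CCNB1.

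Not every member followed. CKS1B had 438 and 349 CPM in these cells against 474 and 461 CPM elsewhere, and CKS2 114 and 184 CPM against 191 and 189 CPM. The 5 others that were not higher in SplitA (BIRC5, CENPA, GTSE1, ECT2 and CDCA3) were at 1.19 to 3.19-fold in SplitB. Histone transcripts were scarce in the same cells, at 7.71 and 4.18 per 10000 against 27.5 and 27.9 elsewhere, while replication transcripts were at 37.3 and 30.6 against 10.9 and 11.2. Among cells of 2000 to 4000 UMIs only, KPNA2 had 719 and 780 CPM in the 50 and 75 rich cells and 40.6 and 107 CPM in the 87 and 95 others. CCNB1 had 245 and 300 CPM against 30.5 and 81.5 CPM (9 and 26 UMIs in the others). CKS1B had 311 and 266 CPM against 464 and 435 CPM, and CKS2 89.0 and 87.2 CPM against 98.1 and 103 CPM. Histone levels were 1.56 and 2.86 per 10000 against 12.6 and 8.87, and replication levels 42.1 and 35.3 against 11.0 and 11.6. Median depth still differed, at 2653 and 2675 against 3492 and 3446 UMIs. Without the rich cells the replication level beside KPNA2 was 12.2 in SplitA and 13.6 in SplitB. Beside CCNB1 it was 11.0 and 14.5. The histone level beside KPNA2 was then 29.4 and 30.1, above the 27.5 and 27.9 of the other cells. It was 20.1 and 23.3 beside CCNB1, 21.8 and 21.2 beside PLK1, 20.9 and 22.5 beside CDC20 and 19.7 and 24.6 beside CCNB2.

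**Figure D5:**
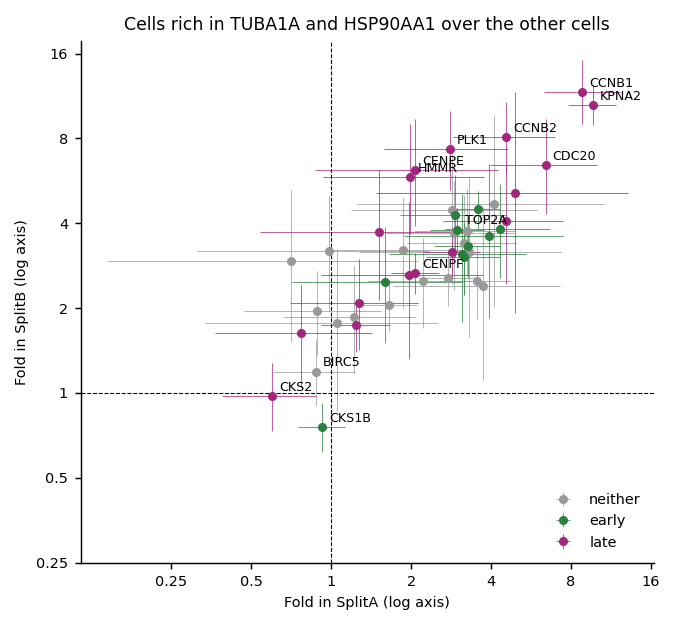
Fold of each member's CPM in cells rich in TUBA1A and HSP90AA1 over the other cells, SplitA (horizontal) against SplitB (vertical), both on log axes with exact 95% intervals for counting error, in green for early, purple for late and grey for other members. KPNA2 and CCNB1 lie at 8.83 to 11.7-fold in both flasks, and CKS1B and CKS2 lie at or below 1.

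The flasks held these genes at close levels. None of the 45 members was 1.5-fold apart, where 323 of 10516 genes with 50 or more UMIs were (3.07%). At that share few of 45 genes would be expected, so the count does not set the members apart. The median size of the log2 ratio was 0.070 for members and 0.12 for all genes, and 23 members were higher in SplitA. These medians were not matched for level, and counting error widens the ratios of rarer genes. The largest ratios were those of AURKA (log2 0.54, interval 0.18 to 0.90), ANLN (log2 -0.42, interval -0.91 to 0.05) and HMMR (log2 0.40, interval 0.05 to 0.75). The counting interval left out 0 for 5 of 45 members, against 655 of the 10516 genes (6.23%). These members (AURKA, HMMR, MAD2L1, UBE2C and CENPF) were higher in SplitA, as were 341 of the genes (3.24%). Across the members the r of log2 CPM between flasks was 0.994, and across the 990 pairs the r of their pairwise r values was 0.810. A ratio of 1 flask to 1 flask has no replicate check.

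Genes outside the set were ranked by the same r. The 10 with the highest r were HMGB2 (0.689 in SplitA and 0.653 in SplitB), the histone variant gene H2AZ1, the tubulin genes TUBA1B and TUBB, HMGB1, the spindle pole gene ASPM (0.505 and 0.513), the phosphatase gene CDKN3 (0.476 and 0.491), UBE2S, which extends ubiquitin chains with the APC/C (0.465 and 0.467), HNRNPA2B1 and the mitotic regulator PIMREG (0.453 and 0.447). HMGB2, a DNA-bending protein, had 2125 and 2139 CPM in the upper 10% of cells by member share and 316 and 345 CPM in the lower 50%. At the other end were the ferritin light chain FTL (-0.419 and -0.443), RACK1, EEF1A1 and 7 ribosomal protein genes, among them RPL5 and RPL13A. FTL had 1426 and 1292 CPM in the upper 10% of cells and 2923 and 2807 CPM in the lower 50%. All these are shares of a cell's UMIs, so a larger share of some genes lowers that of others. Near-identical gene copies of TUBA1B, TUBB and HMGB1 may take or give UMIs.

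Of 96 further genes of mitosis that are not members, 93 were measured and 43 passed the limit of 0.2, against 1.99% of all genes. They were 16 of 19 spindle and cytokinesis genes, 7 of 12 kinases and phosphatases, 4 of 7 condensin, 5 of 11 cohesin and separase, 7 of 20 kinetochore, 2 of 17 APC/C and 2 of 7 transcription regulator genes. The APC/C genes that passed were UBE2S and the inhibitor FBXO5 (0.226 and 0.212). The regulators were FOXM1 (0.426 and 0.410), a forkhead factor of G2/M transcription, at 69.7 and 64.6 CPM, and MYBL2 (0.327 and 0.368). The others with the highest r were TUBB4B (0.443 and 0.522), the histone fold protein CENPW (0.387 and 0.397) and the centrosome kinase NEK2 (0.3996 and 0.374), followed by KIF14, PBK and KIF4A.

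Lists of other processes were counted in the same way, beside the 1.99% of all genes that passed. Of 23 replication genes measured 9 passed, led by TYMS (0.411 and 0.426) and RRM2 (0.361 and 0.374). Of 15 histone genes 1 passed, H4C3 (0.367 and 0.309), and H2AC25 was at -0.231 and -0.286. Of 6 CDK inhibitors 1 passed, CDKN2C (0.255 and 0.245). None of 9 neuroendocrine genes passed, which is near the share over all genes. Their r ran from DLK1 (-0.240 and -0.245) to SCG3 (0.0794 and 0.0774).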

How the data were processed

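Untreated SH-SY5Y cells of 2 flasks were profiled in 1 library. The deposited table holds raw UMI counts that the authors made with Cell Ranger 4.0.0 and STAR 2.7 (submitters' processing notes) on GRCh38, with hashtag rows. Cells were assigned where one hashtag was at least 3 times the other and the other at most 185 counts (limits of the study's code), and kept with 1000 genes or more. The study's further limits on cells, among them a mitochondrial share below 15% as computed here, were applied only as an alternative. Of 33538 identifiers, 33113 had a symbol, and coordinates are those of GENCODE release 44. CPM used all UMIs of a flask, of 1801 to 27205 a cell. Computations ran in Python 3.11.15 (numpy 2.4.6, scipy 1.17.1), with TMM factors from edgeR 4.0.16, and were tested on simulated data. Named were all 45 members, the 10 other genes with the highest and the 10 with the lowest r, and at most 10 genes passing the limit in the other mitosis lists, besides genes singled out after their values were seen (TUBA1A, HSP90AA1, FBXO5, CDKN2C and the named genes of the last lists). Members and lists were chosen with earlier results of these data known. Alternatives changed the filters on cells and genes, depth, hashtag limit, r and fold limits, correlation measure, scaling and reference list.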

Additional observations from a re-analysis of the deposited data

How the results depend on the processing

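Of 54 alternative values 32 stayed close to the main value and 22 moved further. Close means within 1 SD of the flasks, or within 1.5 times for a count. None changed direction, but levels, shares and counts are never negative, so only r and the log2 ratio could have done so. For values averaged over flasks, a flask alone always lies within 1 SD of the flasks, so leaving out a flask could not move them further. The count of members past the r limit then needs only the flask that is left, so it could not fall. The summed level, a mean of 3075 CPM over flasks, was 2957 with the study's limits as well, 3138 with 300 genes a cell, 3155 thinned to 2000 UMIs, 3142 without the 5% of cells with most UMIs and 2917 without the cells rich in TUBA1A and HSP90AA1, an alternative added after the data were seen. The share of member UMIs in the upper 10% of cells, 35.4%, was 36.7%, 33.2%, 38.5%, 37.0% and 36.7% in the same order. The median r over pairs, 0.228, was 0.234 with the study's limits, 0.179 with 300 genes, 0.118 thinned, 0.232 with a hashtag limit of 100 and 0.224 by Spearman. Members past the r limit numbered 27 when thinned, where fewer genes were measured, and 41 to 45 otherwise. The log2 ratio of early to late, a mean of 0.23 by replication genes, was 0.60 by histone genes and 0.52 by these without the rich cells. Members 1.5-fold apart between flasks numbered 1 when thinned (CCNA2), 1 without the 5% of cells with most UMIs (AURKA) and 1 without the rich cells (HMMR), and 3 at the lower fold limit (AURKA, HMMR and ANLN), where 15.2% of all genes passed. The cause of these shifts was not tested. Leaving out a flask gave 3034 to 3116 CPM, 34.5% to 36.4%, 44 members in either flask, a median r of 0.226 to 0.230 and a log2 ratio of 0.14 to 0.32. No paired analysis was possible because each library kind has 1 sample. Depth limits the rare members most, above all TTK (93 UMIs) and BUB1 (72 UMIs).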
